A study of Mus musculus and Homo sapiens
Mus musculus with 14 samples.

Results

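Photoresponse recovery and calcium feedback were followed through 9 mouse genes, Guca1a, Guca1b, Gucy2e, Gucy2f, Rcvrn, Rgs9, Rgs9bp, Gnb5 and Pdc. They were chosen by name for the known function of their products, with earlier results of these data known. Their rows were taken from the count tables of retinal layers and of amacrine cells. All 9 were among the 24460 genes of the layer table, and 8 of 9, all but Guca1a, were among the 18415 genes of the amacrine table. The data came from Light-Seq, in which RNA is reverse transcribed from random primers inside fixed tissue and light then attaches a DNA barcode to the cDNA of hand-drawn areas. In wild-type CD1 mice of the third postnatal week, with no transgene and no treatment, the outer nuclear layer (ONL), the bipolar cell layer (BCL) and the ganglion cell layer (GCL) were barcoded in 4 retinal sections of the same animal, which were technical replicates. In 5 further wild-type retinal sections, amacrine cells stained by an antibody against tyrosine hydroxylase (TH+) and unstained amacrine cells (TH−) received separate barcodes, and these sections were technical replicates too. Each count is a number of unique molecular identifiers (UMIs), so PCR copies of a molecule count once, and levels are given as CPM, the UMIs of a gene scaled to a fixed library total. The p-values therefore measure the spread between sections, which may be technical.

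After a rod or cone absorbs light, the G protein transducin activates a phosphodiesterase that breaks down cGMP, the cGMP-gated channels close and calcium in the outer segment falls. To recover, the cell has to switch transducin off, which the complex of Rgs9, Gnb5 and the membrane anchor Rgs9bp speeds up, and has to make cGMP again, which the membrane guanylate cyclases encoded by Gucy2e and Gucy2f do. Falling calcium is read by the activating proteins of those cyclases, encoded by Guca1a and Guca1b, and by recoverin, encoded by Rcvrn, which holds back the photoreceptor kinase Grk1 when calcium is high. Phosducin, encoded by Pdc, binds the beta and gamma subunits of transducin.

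The library totals ran from 310228 to 801105 UMIs in the ONL, from 193869 to 208437 in the BCL, from 585655 to 785013 in the GCL, from 30317 to 87449 in TH+ and from 134394 to 200344 in TH− cells. Every pair of libraries within a group differed by more than counting noise (chi-square test over genes, 1.15 to 2.91 per degree of freedom), so none was counted as a copy of another. The layers carried their own markers. All 14 rod and 8 cone markers were higher in the ONL than in the BCL and the GCL, all 9 bipolar markers were higher in the BCL than in both other layers, and all 8 ganglion cell markers were higher in the GCL than in both. Th itself was higher in TH+ than in TH− libraries by 4.22 ± 0.32 (log2 fold change ± SE). No layer was free of rod transcripts. The 14 rod markers summed to 7.10 to 8.54% of all UMIs in the ONL, 1.56 to 2.56% in the BCL, 0.578 to 0.954% in the GCL, 1.64 to 4.26% in TH+ and 0.934 to 2.43% in TH− libraries, and none of them was at 0 in any of these groups.

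In GENCODE vM39 on GRCm39, Guca1a (chr17:47705483-47711509, minus strand) and Guca1b (chr17:47696301-47703910, plus strand) are neighbours, and Gucy2e (chr11:69108943-69127870, minus strand), Rcvrn (chr11:67586141-67594159, plus strand) and Rgs9 (chr11:109116158-109189025, minus strand) share chromosome 11. Gucy2f is at chrX:140863355-140980174 (minus strand), Rgs9bp at chr7:35278418-35285007 (minus strand), Gnb5 at chr9:75213524-75253203 (plus strand) and Pdc at chr1:150195168-150209657 (plus strand). Counts were taken over exons, so introns did not contribute. On the opposite strand, annotated long noncoding RNAs shared 259 of 9205 exonic bases of Gucy2e, 123 of 6532 of Rgs9 and 248 of 3641 of Gnb5. Counting used the default settings of featureCounts, which ignore strand and assign a read over exons of several genes to none of them. Only the partner of Gnb5, Gm19531, is listed with the mixed-culture counts and so was part of the annotation used for counting. Reads over the shared bases may therefore be missing for Gnb5. The partners of Gucy2e and Rgs9 are not listed there, so no such loss is known for them. Gm19531 alone was also a row of the layer table, with 25 UMIs over 12 libraries against 1695 for Gnb5.

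Promoter sequence is shown for members whose window held the 6 letters TAATCC on either strand, since these letters make up a site that the photoreceptor homeodomain factor CRX and its relatives are known to bind. RefSeq windows of GRCm38.p6 were found for 6 of 9 members, Guca1a, Gucy2e, Gucy2f, Rgs9, Gnb5 and Pdc, and were searched over the 250 bases before the annotated start. TAATCC or its reverse complement GGATTA was in 4 of these 6 windows and in 2054 of 32851 windows of the same length over all genes (6.25%). Capitals mark the matches, and each window is printed 5′ to 3′ on the strand of its gene.
Guca1a, chr17:47400607-47400856, minus strand: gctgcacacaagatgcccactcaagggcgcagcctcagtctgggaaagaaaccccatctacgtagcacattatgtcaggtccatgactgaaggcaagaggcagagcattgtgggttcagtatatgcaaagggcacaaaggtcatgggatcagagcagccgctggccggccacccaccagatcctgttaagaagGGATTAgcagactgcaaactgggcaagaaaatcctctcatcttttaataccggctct
Gucy2e, chr11:69237023-69237272, minus strand: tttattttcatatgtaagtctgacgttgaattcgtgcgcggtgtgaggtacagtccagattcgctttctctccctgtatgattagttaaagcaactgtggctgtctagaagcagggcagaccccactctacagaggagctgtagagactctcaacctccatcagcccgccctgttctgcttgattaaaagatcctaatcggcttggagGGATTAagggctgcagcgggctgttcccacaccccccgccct
Gucy2f, chrX:142196937-142197186, minus strand: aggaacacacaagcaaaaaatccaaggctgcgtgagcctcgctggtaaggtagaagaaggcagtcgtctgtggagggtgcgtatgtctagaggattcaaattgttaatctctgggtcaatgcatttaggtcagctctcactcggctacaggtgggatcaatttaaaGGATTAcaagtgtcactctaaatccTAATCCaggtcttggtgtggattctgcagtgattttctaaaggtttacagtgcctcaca
Gnb5, chr9:75306038-75306287, plus strand: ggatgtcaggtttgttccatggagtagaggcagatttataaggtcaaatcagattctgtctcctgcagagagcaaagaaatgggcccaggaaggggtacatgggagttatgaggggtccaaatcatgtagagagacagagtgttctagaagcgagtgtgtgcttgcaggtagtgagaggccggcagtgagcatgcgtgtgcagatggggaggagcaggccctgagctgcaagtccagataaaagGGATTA
Counted back from the start, the match lay at bases -57 to -52 in Guca1a, -42 to -37 in Gucy2e and -6 to -1 in Gnb5. Gucy2f had a pair of them, at -84 to -79 and -59 to -54, in opposite orientation. At least 2 matches were found in 0.295% of all windows. The windows of Rgs9 and Pdc held neither orientation. The letters TGCTGAC, part of the site of the rod factor NRL, were in 0 of the 6 windows and in 3.81% of all windows, on either strand.

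The layer comparison asks where in the retina each transcript was counted. Of the 9 members, 8 passed the low-count filter, and all 8 were highest in the ONL, lower in the BCL and lowest in the GCL, each step past the test (edgeR quasi-likelihood test, adjusted over 11324 genes). All 8 were higher in the ONL than in the BCL, where 18.5% of all genes tested were called higher in the ONL, and all 8 were higher in the ONL than in the GCL, where 29.3% were. All 8 were higher in the BCL than in the GCL, a call that 16.1% of genes shared. The fold differences between ONL and BCL ranged from 2.6 for Gnb5 to 6.86 for Guca1b. Those between ONL and GCL ranged from 4.45 for Gnb5 to 15.9 for Guca1b, and those between BCL and GCL from 1.58 for Rgs9 to 3.83 for Rgs9bp. These folds use library sizes scaled by TMM, with factors of 0.859 to 0.939 in ONL and 1.11 to 1.14 in BCL libraries. Ratios of CPM, which use column totals, therefore stand lower for ONL over BCL. Summed over the members, they made up 1.12 ± 0.0829% of the UMIs of the ONL, 0.303 ± 0.0601% of the BCL and 0.119 ± 0.0326% of the GCL (mean ± SD, n = 4 sections). Less RNA per cell, fewer cells of a type and RNA barcoded from outside the drawn area cannot be told apart in such libraries. For background in its cell cultures the paper proposes diffusion of RNA or cDNA, barcode strands left after washing and scattered light. Their part in the BCL and GCL levels was not tested.

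**Figure D1:**
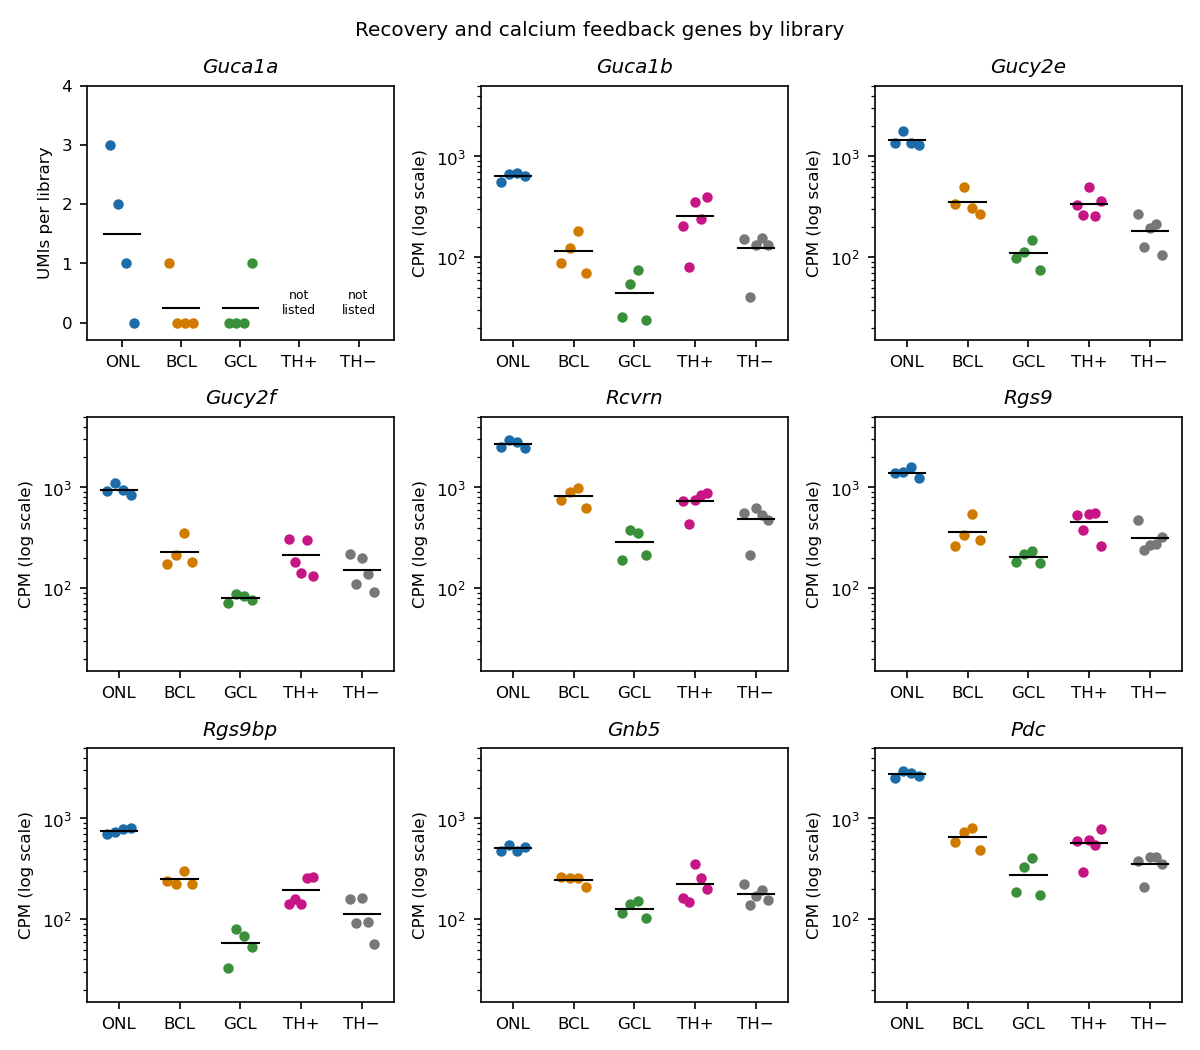
Level of each of the 9 genes in every library, in CPM on a log axis, except for Guca1a, shown as UMIs per library on a linear axis. Points are libraries (4 sections per layer, 5 per amacrine group) and lines are means, and in the 8 genes shown in CPM every ONL library lies above every BCL and GCL library.

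Guca1b encodes a calcium sensor that activates the membrane cyclases. Its level in sections 1 to 4 was 557, 665, 687 and 641 CPM in the ONL, 87.7, 125, 183 and 69.2 CPM in the BCL and 25.5, 54.0, 75.3 and 23.9 CPM in the GCL. The ONL libraries stood clear of both other layers, whereas the highest GCL library, section 3, lay above the lowest BCL library, section 4. The BCL exceeded the GCL in each of the 4 sections all the same, by 1.22 ± 0.27 (log2 fold change ± SE, adjusted p = 0.000242). Against the ONL the differences were 2.78 ± 0.19 for the BCL (adjusted p = 5.42e-18) and 3.99 ± 0.18 for the GCL (adjusted p = 1.46e-26). Guca1b was the only one of the 8 whose BCL and GCL libraries overlapped. Every library of the higher layer lay above every library of the lower one in 8 of 8 members for ONL over BCL, 8 of 8 for ONL over GCL and 7 of 8 for BCL over GCL, against 11.2%, 22.0% and 18.7% of all genes tested.

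Guca1a, the other cyclase activator, was almost absent from the counts. The ONL libraries held 3, 2, 1 and 0 UMIs, the BCL libraries 1, 0, 0 and 0 and the GCL libraries 0, 0, 0 and 1. Over the 4 libraries this amounted to 2.64 CPM in the ONL (95% exact Poisson interval 0.969 to 5.75, counting error only), 1.25 CPM in the BCL (0.0316 to 6.95) and 0.372 CPM in the GCL (0.00942 to 2.07), so a difference between layers was not detectable at this depth. Guca1a did not pass the low-count filter, and without the filter it was tested and not called in any of the 3 layer comparisons (adjusted p = 0.126 to 0.718). In the annotation, 731 of its 873 exonic bases (83.7%) also belong to exons of Gm50461, a readthrough gene on the same strand that starts upstream and runs into Guca1a, which leaves 142 bases to Guca1a alone. Gm50461 is among the genes the mixed-culture tables list, so it was part of the annotation used for counting, and it is a row of neither retinal table. Under the default settings of featureCounts a read over exons of both genes is assigned to neither, so the UMIs and CPM of Guca1a may reflect only the bases it does not share. The part of this overlap in the low count was not tested.

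**Figure D2:**
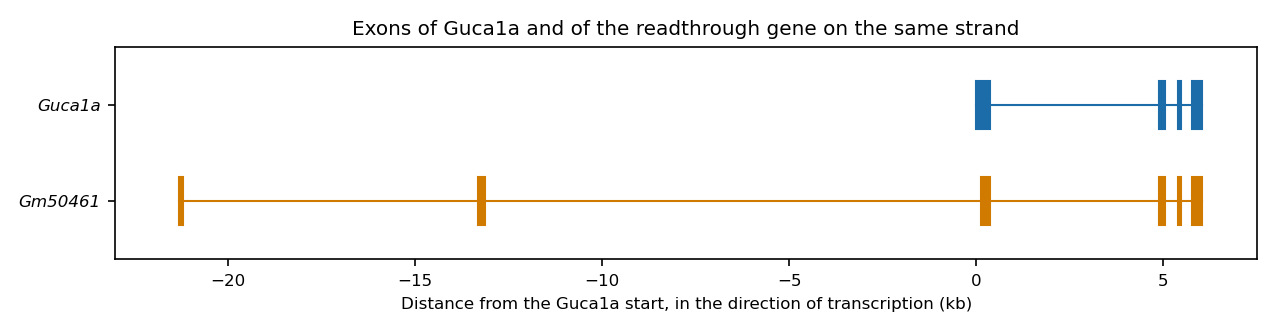
Exons (boxes) of Guca1a and of the readthrough gene Gm50461 on the same strand in GENCODE vM39, against the distance from the Guca1a start in kb. All 4 exons of Guca1a overlap exons of Gm50461, which share 731 of the 873 exonic bases of Guca1a.

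The membrane cyclases that remake cGMP showed the same order of layers. Gucy2e was at 1362, 1773, 1361 and 1286 CPM in the ONL, 340.4, 504, 310.0 and 272 CPM in the BCL and 99.4, 114, 149 and 75.1 CPM in the GCL of sections 1 to 4. Gucy2f was at 932, 1105, 947 and 835 CPM in the ONL, 175, 216, 351 and 183 CPM in the BCL and 71.3, 88.4, 83.0 and 76.8 CPM in the GCL. Section 2 gave the highest ONL value of both genes, and no libraries of different layers overlapped. The ONL exceeded the BCL by 2.35 ± 0.15 for Gucy2e and 2.39 ± 0.15 for Gucy2f, and exceeded the GCL by 3.89 ± 0.15 and 3.75 ± 0.14 (log2 fold change ± SE). Per kilobase of exon, the ratio of Gucy2e to Gucy2f was 1.33 ± 0.068 in ONL, 1.47 ± 0.55 in BCL and 1.20 ± 0.298 in GCL libraries (mean ± SD, n = 4). It differed between no pair of layers (two-sided exact permutation tests on the log2 ratio, p = 0.429 to 0.943), and in the BCL it ranged from 0.781 to 2.06.

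Rcvrn, the calcium sensor that acts on Grk1, and Pdc, the transducin beta-gamma binder, were the most abundant members. Rcvrn was at 2545, 2967, 2853 and 2479 CPM in the ONL, 753, 902, 981 and 633 CPM in the BCL and 192, 381, 353 and 215 CPM in the GCL. Pdc was at 2530.3, 2942, 2831 and 2643 CPM in the ONL, 583, 734, 798 and 489 CPM in the BCL and 189, 331, 404 and 176 CPM in the GCL. For both genes sections 2 and 3 were above sections 1 and 4 in each of the 3 layers. Rcvrn was higher in the ONL than in the BCL by 2.06 ± 0.14 and than in the GCL by 3.41 ± 0.15, and Pdc by 2.40 ± 0.16 and 3.48 ± 0.16 (log2 fold change ± SE). The ratio of Rcvrn to Pdc per kilobase was 3.19 ± 0.112 in ONL, 4.06 ± 0.118 in BCL and 3.44 ± 0.494 in GCL libraries, and every BCL library lay above every ONL library.

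The complex that switches transducin off has a catalytic subunit, an anchor and a beta subunit among the members. Rgs9, the catalytic subunit, was at 1381, 1414, 1579.7 and 1251 CPM in the ONL, 263, 341, 544 and 302 CPM in the BCL and 182, 220.3, 237 and 179 CPM in the GCL. Rgs9bp, the anchor, was at 704, 730.4, 788 and 796 CPM in the ONL, 242, 225, 305 and 222 CPM in the BCL and 33.1, 79.4, 67.6 and 52.9 CPM in the GCL. Gnb5, the beta subunit that binds Rgs9 and also its relatives in other neurons, was at 481, 552, 477 and 522 CPM in the ONL, 263, 259, 254 and 208 CPM in the BCL and 115, 141, 151 and 104 CPM in the GCL. Gnb5 thus had the lowest ONL level of the 8 members in CPM, but not in the other layers. Its differences were the smallest of the 8 against the ONL, 1.38 ± 0.13 for the BCL (adjusted p = 1.32e-12) and 2.15 ± 0.12 for the GCL (adjusted p = 3.17e-22). Rgs9 differed by 2.29 ± 0.14 and 2.94 ± 0.13 and Rgs9bp by 1.92 ± 0.14 and 3.86 ± 0.15 (log2 fold change ± SE, ONL over BCL and over GCL). Between BCL and GCL, Rgs9bp showed the largest difference of the 8, 1.94 ± 0.19, and Rgs9 the smallest, 0.66 ± 0.16.

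Per kilobase, there was more Rgs9 than Gnb5 in each ONL library, with ratios of 1.17 to 1.61, and less in each GCL library, with ratios of 0.762 to 0.839. In the BCL the ratio ran from 0.487 to 1.04. The ratio of Rgs9 to Rgs9bp was 1.93 ± 0.207 in ONL, 1.48 ± 0.301 in BCL and 3.91 ± 1.22 in GCL libraries. Of 12 tests of 4 ratios between pairs of layers, added after the values had been seen, 6 reached p = 0.0286, the smallest that 4 against 4 libraries can give in a two-sided exact permutation test, and after Benjamini-Hochberg adjustment these stood at 0.0571. Those 6 were Rgs9 to Gnb5 for the ONL against either other layer, Rgs9 to Rgs9bp for the GCL against either other layer, and Rcvrn to Pdc for the BCL against either other layer.

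Within a library, levels of different genes were compared per kilobase of the deposited gene length (RPKM). In the ONL the order was Rcvrn (2607 ± 227), Pdc (817 ± 55.2), Guca1b (261 ± 23.4), Rgs9 (220.1 ± 21.2), Gnb5 (163 ± 11.5), Gucy2e (157 ± 24.1), Gucy2f (118 ± 13.8) and Rgs9bp (114 ± 6.76), as mean RPKM ± SD over 4 sections. Neighbours whose libraries overlapped in that order were Guca1b and Rgs9, Gnb5 and Gucy2e, and Gucy2f and Rgs9bp. Rcvrn alone made up 58.4 ± 0.781% of the members' summed RPKM in ONL, 61.9 ± 0.657% in BCL and 57.0 ± 2.93% in GCL libraries. Rcvrn and Pdc also led in the BCL and the GCL, but Gnb5 was the third there, at 79.0 ± 8.29 and 41.0 ± 6.99 RPKM. From Gnb5 downwards, each member in the BCL and the GCL overlapped with the next in order.

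**Figure D3:**
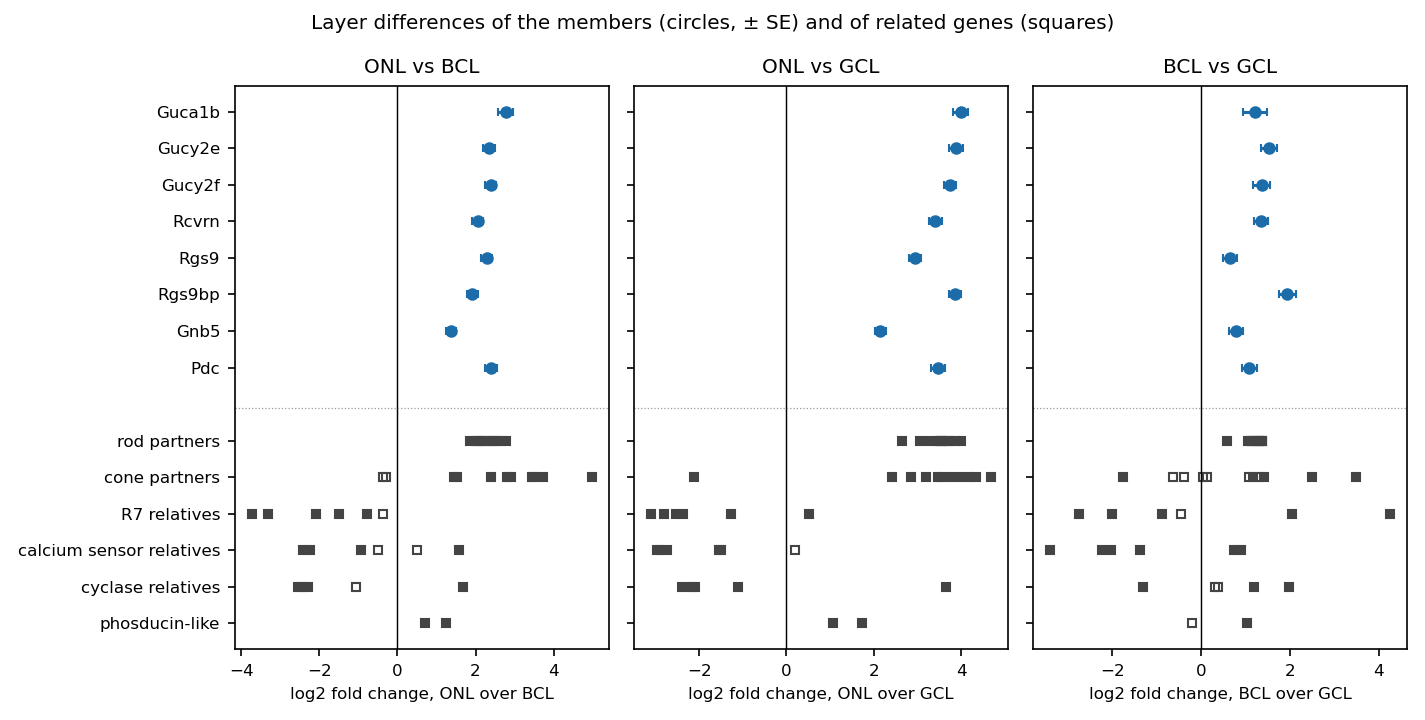
Log2 fold changes between layers of the 8 members tested (circles, with bars of ± 1 SE) and of related genes by list (squares, filled where the adjusted p was under 0.05). All 8 members lie to the right of 0 in the 3 panels, as do the rod partners, whereas the relatives of Rgs9, of the calcium sensors and of the cyclases mostly lie to the left where ONL is the first layer.

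Rod transcripts were counted outside the ONL as well, so the members' levels there were set beside those of the 14 rod markers, none of which is a member. In the BCL the rod markers summed to 21.1 to 30.0% of the ONL level of the same section, and single rod markers averaged from 18.1% for Cnga1 to 34.1% for Gngt1. The members averaged from 18.0% for Guca1b to 48.7% for Gnb5, and their median, 24.9%, was close to the 25.2% of the rod markers. In the GCL the rod markers summed to 7.23 to 11.2%, with single markers from 6.95% for Grk1 to 13.5% for Gngt1, and the members had a median of 9.16% against 9.36%. On the mean over sections, Gnb5 lay above each single rod marker in both layers, with sections at 39.8 to 54.7% in the BCL and 19.9 to 31.6% in the GCL. The mean of Rgs9 lay above them in the GCL alone, at 14.5%, but its sections, at 13.2 to 15.6%, lay within those of Gngt1, at 9.51 to 18.4%, and Guca1b averaged just below them in both layers, at 18.0% and 6.84%. Rgs9bp, at 27.9 to 38.7% in the BCL and 4.7 to 10.9% in the GCL, averaged within the range of the rod markers in each.

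Relative to the rod marker sum, Gnb5 was 2.02 times as high in the BCL as in the ONL and 2.76 times as high in the GCL, and Rgs9 was 1.61 times as high in the GCL. In all 3 cases no library overlapped between the layers (two-sided exact permutation test, p = 0.0286, the smallest possible with 4 against 4). Guca1b at 0.715 times and Rgs9bp at 1.37 times in the BCL gave the same p. After adjustment over the 16 such tests, which were added after the values had been seen, these 5 had an exact permutation p of 0.0914 and none passed. The part of rod RNA in the members' BCL and GCL levels was not tested.

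**Figure D4:**
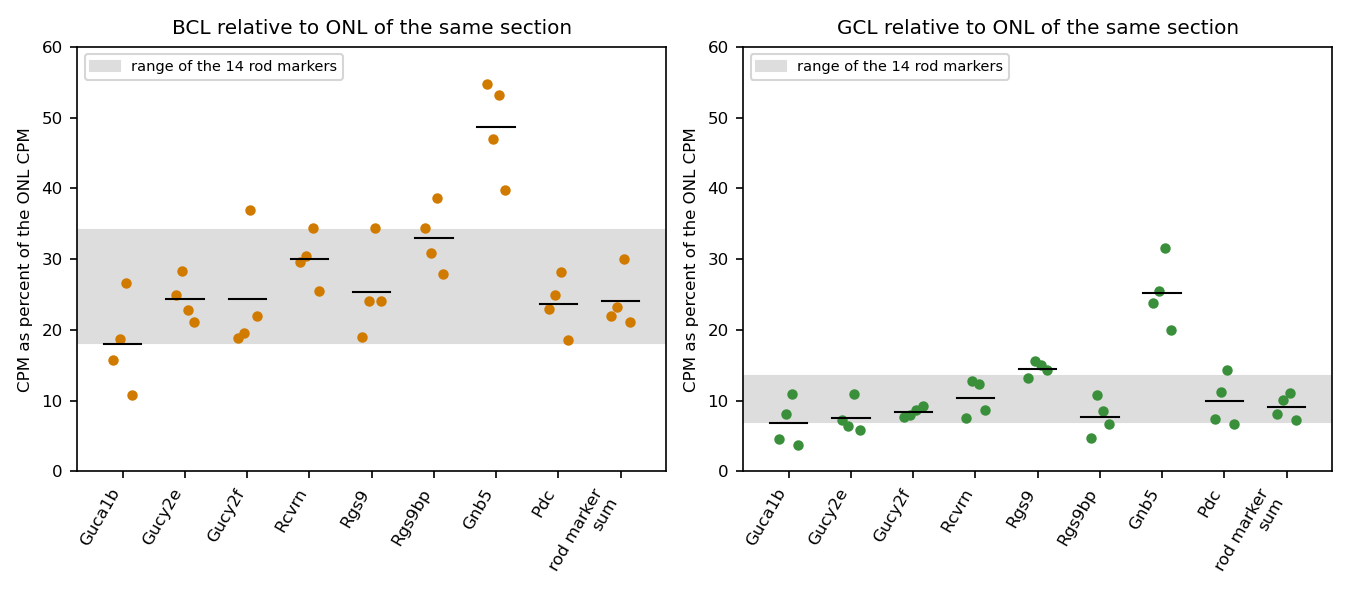
Level of each member, and of the summed rod markers, in the BCL (left) and the GCL (right) as a percentage of its ONL level in the same section, with 4 points per gene and lines at the mean. Grey bands span the means of the 14 single rod markers, and Gnb5 lies above the band in both panels, at 48.7% and 25.2% on average.

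The partners of these genes in the rod cascade moved as they did. All 12 of 12 rod partners were higher in the ONL than in the BCL, higher in the ONL than in the GCL and higher in the BCL than in the GCL, with median log2 fold changes of 2.31, 3.54 and 1.24 beside 2.32, 3.61 and 1.28 for the 8 members and 0.09, 0.0041 and -0.02 for all genes. Of these 12, 10 are also in the rod marker list. The arrestin Sag was at 12835 ± 2007 CPM in the ONL and 1175 ± 348 CPM in the GCL, and the transducin subunits Gnat1 at 12663 ± 840 and 1279 ± 288 CPM and Gnb1 at 7222 ± 393 and 1281 ± 134 CPM (mean ± SD, n = 4). Gnb1, which is used by many neurons, had the smallest ONL to GCL difference of the list, 2.65 ± 0.12.

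Of the 11 cone partners, 9 were higher in the ONL than in the BCL and 10 higher in the ONL than in the GCL, and 8 of the 11 are also cone markers. The cone pigment Opn1sw was at 1292 ± 399 CPM in the ONL and 57.2 ± 9.2 CPM in the GCL, Arr3, the cone arrestin, at 159 ± 41.8 and 15.1 ± 4.56 CPM, and the pigment Opn1mw at 155 ± 43.7 and 13.2 ± 3.15 CPM. Gnb3, the cone transducin beta subunit that ON bipolar cells also use, was at 159 ± 37.5 CPM in the ONL and 255 ± 25.7 CPM in the BCL and was not called between them (adjusted p = 0.152). With DESeq2's size factors in edgeR, Gnb3 (adjusted p = 0.0428) and the exchanger Slc24a2 (adjusted p = 0.0448) were both called lower in the ONL than in the BCL. The exception in the GCL, named after its value was seen, was Slc24a2, which was lower in the ONL by 2.13 ± 0.13 on the log2 scale. It was at 92.5 ± 20.2 CPM there and at 451 ± 38.6 CPM in the GCL.

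Relatives of the members that other neurons also use were described list by list. Among 6 relatives and anchors of the Rgs9 family, 0 were higher in the ONL than in the BCL and 5 were lower, a call made for 18.2% of all genes tested. Gpr179, the anchor in ON bipolar cells, was at 1196 ± 36.6 CPM in the BCL, 72.5 ± 26.8 CPM in the ONL and 56.0 ± 11.0 CPM in the GCL, and was the only one higher in the ONL than in the GCL, by 0.52 ± 0.20. That call was lost in 5 of 10 alternatives, with DESeq2, without the filter, without mitochondrial genes and without section 1 or 4, with adjusted p up to 0.553. Rgs11, which works with Gnb5 in ON bipolar cells, was at 157 ± 25.7 CPM in the BCL and 10.5 ± 6.4 CPM in the ONL. In the GCL the anchors Gpr158 and Rgs7bp were at 328 ± 22.8 and 246 ± 21.8 CPM, against 33.7 ± 16.0 and 32.1 ± 11.0 CPM in the ONL, and Rgs6 was at 130.4 ± 25.2 against 21.7 ± 1.98 CPM. Rgs7bp was no longer called lower in the ONL than in the BCL without section 2 or without section 3 (adjusted p up to 0.727).

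Among 6 calcium sensor relatives of recoverin, 5 were lower in the ONL than in the GCL, as were 32.2% of all genes tested, and 0 were higher. Vsnl1 was at 320.4 ± 34.8 CPM in the GCL and 37.9 ± 14.5 CPM in the ONL, Hpca at 299 ± 32.3 and 37.0 ± 14.1 CPM, and Ncs1 at 277 ± 25.8 and 33.6 ± 13.1 CPM. The exception, Hpcal1, named after its value was seen, was at 100 ± 14.7 CPM in the ONL and 94.1 ± 16.2 CPM in the GCL (adjusted p = 0.284), although without section 1 it was called higher in the ONL (adjusted p = 0.034). It was the 1 relative higher in the ONL than in the BCL. Of 7 other cyclase genes and regulators, 5 were tested. Rd3, which binds the membrane cyclases and is known to hold back their activity, was higher in the ONL, at 589 ± 47.8 CPM against 231 ± 56.1 CPM in the BCL and 52.3 ± 5.42 CPM in the GCL. The other 4, all lower in the ONL than in the GCL, included the nitric oxide receptor subunits Gucy1a1, at 81.8 ± 31.4 against 195 ± 24.7 CPM, and Gucy1b1, at 18.7 ± 1.81 against 96.4 ± 16.5 CPM, and the peptide receptor Npr2, at 10.4 ± 6.94 against 51.8 ± 10.1 CPM. The phosducin-like genes Pdcl and Pdcl3, which assist the folding of other proteins, were both higher in the ONL than in the GCL, although Pdcl3 was not called without section 1 (adjusted p = 0.0598) and was not tested with the default filter of edgeR. Pdcl, at 73.3 ± 10.9 CPM, and Pdcl3, at 21.7 ± 7.67 CPM, were far below Pdc there. Their calls as higher in the ONL than in the BCL were lost in 5 of 10 alternatives for Pdcl (adjusted p up to 0.334) and in 8 of 9 for Pdcl3 (adjusted p up to 0.41), which was still called without section 2.

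Over the 12 layer libraries the 8 members tested followed each other closely, with Pearson correlations of log2(CPM + 1) between 0.929 and 0.996 over 28 pairs. These correlations describe 12 libraries that fall into 3 layers and share sections, depth and cell mixture. The genes outside the set most like the members' sum were Reep6 (r = 0.998), Pde6a (r = 0.998) and Tulp1 (r = 0.998), while the median over all genes tested was -0.143. Pde6b, a subunit of the rod phosphodiesterase, was most like Guca1b (r = 0.991) and Pdc (r = 0.996), and Pde6g, its inhibitory subunit, most like Rcvrn (r = 0.996). Reep6 was most like Gucy2e (r = 0.993), Wdr17 most like Rgs9 (r = 0.996), the demethylase gene Kdm3b most like Rgs9bp (r = 0.993) and the retinol dehydrogenase gene Rdh12 most like Gnb5 (r = 0.994).

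The amacrine table holds 5 other sections, sequenced in another run, so its levels were not tested against the layers. The paper barcoded only a few TH+ cells per section and far more TH− cells. It also describes some barcoding outside the drawn areas through scattered light. TH+ and TH− cells below stand for the libraries barcoded over them. The members summed to 0.300, 0.194, 0.339, 0.327 and 0.330% of UMIs in the TH+ libraries of sections 1 to 5 and to 0.243, 0.117, 0.217, 0.203 and 0.170% in the TH− libraries. The TH+ library was the higher one in 5 of 5 sections, by 1.23 to 1.94 times, and section 2 was the lowest of both groups. No member passed the test between TH+ and TH− libraries (edgeR, adjusted over 6021 genes, of which 0.83% were called), nor did any with DESeq2, although the fitted difference was above 0 for all 8. At an unadjusted p under 0.05, 6 of 8 were higher in TH+ libraries, as were 3.85% of all genes.

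Each section gave a TH+ and a TH− library. With the section as a block, 4 of the 8 members were called higher in TH+ libraries, against 1.59% of all genes. These were Guca1b, by 0.97 ± 0.27 (adjusted p = 0.0196), Gucy2e, by 0.86 ± 0.22 (adjusted p = 0.0085), Rcvrn, by 0.61 ± 0.15 (adjusted p = 0.00638), and Pdc, by 0.63 ± 0.17 (adjusted p = 0.0176). Without the block their values were 0.87 ± 0.32, 0.84 ± 0.25, 0.54 ± 0.21 and 0.58 ± 0.21, with adjusted p from 0.0983 to 0.344. All 4 were higher in the TH+ library in 5 of 5 sections. Guca1b was at 204, 80.0, 353, 238 and 396 CPM in TH+ and 151, 40.5, 134, 155 and 134 CPM in TH− libraries, and Gucy2e at 327, 263, 494, 259 and 363 against 269.6, 127, 193, 215 and 106 CPM. Rcvrn was at 735, 435, 753, 843 and 891 against 559, 214, 625, 539 and 479 CPM, and Pdc at 592, 297, 612, 541 and 792 against 381, 208, 417, 414 and 352 CPM. The groups overlapped in all 4 genes, and section 2 was the lowest section of both groups for Guca1b, Rcvrn and Pdc.

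The other 4 members passed under neither fit. Gucy2f was at 306, 183, 141, 303 and 132 CPM in TH+ and 217, 109.9, 201, 139.8 and 91.6 CPM in TH− libraries, and Gnb5 at 163, 149, 353, 259 and 198 against 224, 139, 171, 195 and 155 CPM. Rgs9 was at 531, 377, 541, 562 and 264 against 473, 237, 268, 275 and 324 CPM, and Rgs9bp at 143, 160.1, 141, 259 and 264 against 158, 92.6, 164, 94.8 and 56.4 CPM. TH+ was the higher library in 4 of 5 sections for Gucy2f, Gnb5 and Rgs9 and in 3 of 5 for Rgs9bp, whose TH+ libraries rest on 6 to 14 UMIs. The members' UMIs in a TH+ library ranged from 4 for Gucy2f to 39 for Rcvrn.

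**Figure D5:**
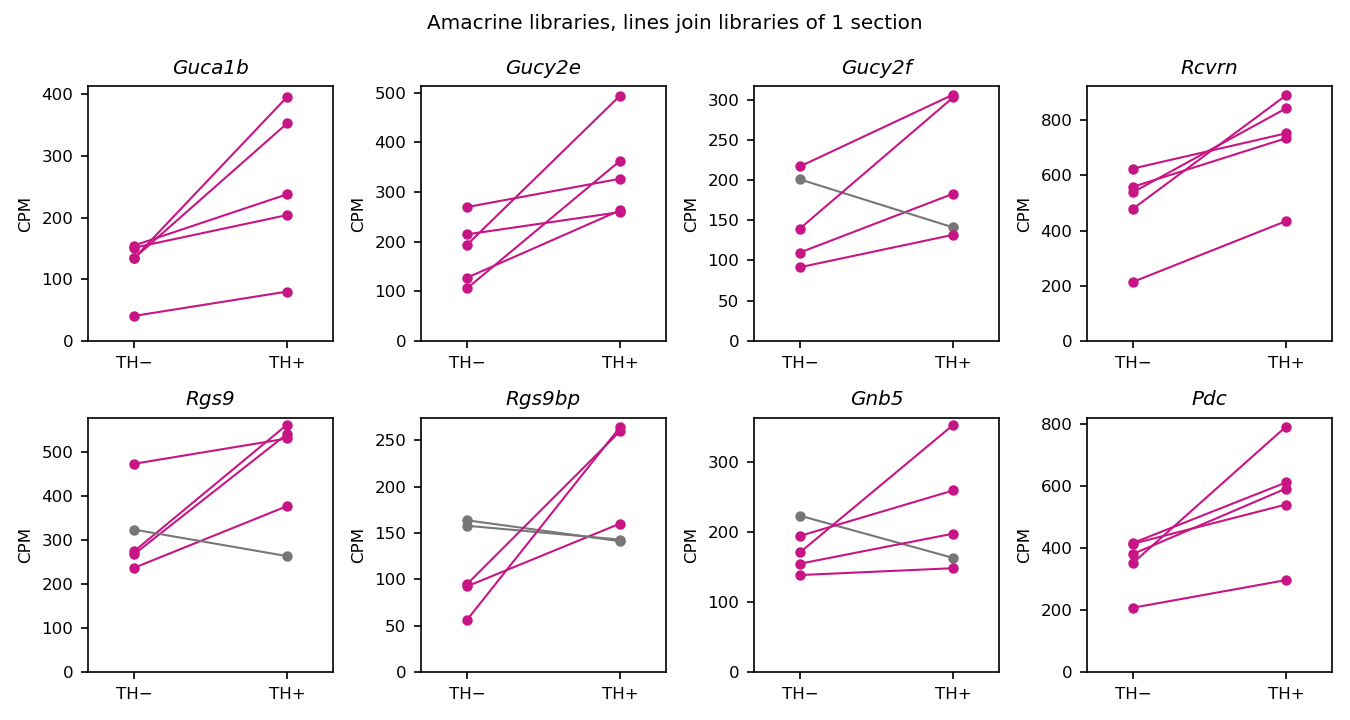
CPM of the 8 members listed in the amacrine table, with a line joining the TH− and the TH+ library of each of the 5 sections, magenta where TH+ was higher and grey where it was lower. Guca1b, Gucy2e, Rcvrn and Pdc rise from TH− to TH+ in all 5 sections, while Rgs9bp does so in 3.

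Rod markers moved in the same direction. Their sum was 1.37 to 2.11 times as high in the TH+ as in the TH− library of the same section, and their median log2 fold change was 0.77 beside 0.56 for the members and -0.05 for all genes. Without the block 4 of 14 rod markers were called higher in TH+ cells, against 0 of 8 members and 0.747% of all genes, and with the block 12 of 14 were, against 4 of 8 members. In the alternatives without the block the number of rod markers called ranged from 0 without section 5, and 1 with DESeq2 or without section 3 or 4, to 10 without section 2. Of the 12 rod partners, which share 10 genes with that list, 4 were called higher in TH+ cells without the block, 10 with it, 8 without section 2, 1 without section 1, and 0 with DESeq2 or without section 3, 4 or 5. The part of rod RNA in the members' difference was not tested. The summed cone markers, at 0.0126 to 0.0303% of UMIs in TH+ and 0.00926 to 0.0243% in TH− libraries, were higher in TH+ cells in 3 of 5 sections.

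Cultured 3T3 fibroblasts, a mouse embryonic line, were barcoded in 3 wells of the same series and hold no photoreceptors. They were grown there together with human HEK cells that express eGFP, which received another barcode. The 3T3 libraries held 2 member UMIs among 540880, 1 of Rgs9bp and 1 of Gnb5, which is 3.7 CPM for all members together. The other 7 members were at 0, which allows up to 5.55 CPM each over the 3 wells, counting error only. These counts say nothing about RNA from neighbouring rods in a retinal section.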

How the data were processed

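RNA was read in 12 libraries of retinal layers, 10 of amacrine cells and 3 of 3T3 cells. The authors extracted UMIs and barcodes from the reads with UMI-tools 1.1.1, mapped the cDNA with STAR 2.7.9a to mouse genes (GENCODE vM27, mm39), discarded multimapped reads and 2 ribosomal RNA genes, assigned reads to exons with featureCounts and collapsed UMIs per gene. The deposited count is therefore a number of UMIs, a whole number without normalization. Gene lengths were deposited with the mixed-culture counts. The deeper run of the mixed culture, human counts and the pooled layer library were not analysed here.

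Samples were grouped by their labels and columns by name. CPM used the column total, and RPKM the deposited length. Tests were quasi-likelihood F-tests of edgeR 4.0.16 (R 4.3.3) with TMM scaling and its low-count filter set to a minimum of 3 UMIs and a total of 10, in 1 fit over 12 layer libraries and 1 over 10 amacrine libraries, with Benjamini-Hochberg adjustment at 0.05. An SE was obtained from the F statistic, as the absolute log2 fold change over the root of F. On simulated data with 4-fold changes the test recovered 158 of 192 changed genes for the layers with 4 false calls and 153 of 173 for the amacrine cells with 5. The simulation used a fixed spread between libraries and no section effect. It gives no recovery rate for smaller changes, such as the members' fitted 1.21-fold to 1.82-fold differences between TH+ and TH− libraries. Sections pair the libraries cut from them. Deviations from group means correlated at 0.0116 to 0.0493 for the 12 layer pairs of 1 section and at 0.0287 to 0.257 for the 5 amacrine pairs, against -0.0609 to 0.0431 and -0.117 to 0.0418 between sections. Ratios were tested by exact permutation with scipy 1.17.1. Alternatives were DESeq2 1.42.0, its size factors in edgeR, no filter, the default filter of edgeR, the section block, leaving out mitochondrial genes and leaving out each section.

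The members, lists and tests were chosen with earlier results of these data known. Named are all members, up to 4 genes per list with the highest mean CPM in the layer described, and the genes most like the members by correlation. Not every gene named by these criteria is reported here. Positions are from GENCODE vM39 on GRCm39, the assembly of mm39, and promoters from RefSeq on GRCm38.p6.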

Additional observations from a re-analysis of the deposited data

Results flagged for a closer look

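In 5 of 43 sets of libraries (1 member in 1 group), 1 library stood far from the others by Dixon's test, and chance alone flags about 1 set in 20. Guca1a was at 5.16 CPM in the BCL of section 1 and at 1.71 CPM in the GCL of section 4, each from 1 UMI, with the other 3 libraries at 0. A set with 1 UMI and otherwise 0 is always flagged, so the rate of 1 in 20 does not apply to it. Gucy2e was at 1773 CPM in the ONL of section 2, against 1286 to 1362 CPM in the other 3, and remained past the test in every layer comparison without that section. Gnb5 was at 208 CPM in the BCL of section 4, against 254 to 263 CPM. Guca1b was at 40.5 CPM in the TH− library of section 2, against 134 to 155 CPM, and the TH+ library of that section was also the lowest of its group, at 80.0 CPM.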

How the results depend on the processing

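All 8 members that passed the filter were called, in the same direction, in the 3 layer comparisons under each of the 10 alternatives run, the section block and each section left out included. Their log2 fold changes ranged from 1.29 to 3.06 for ONL over BCL, from 2.06 to 4.33 for ONL over GCL and from 0.46 to 2.17 for BCL over GCL, with a highest adjusted p of 0.0399, for Rgs9 in the last. Between TH+ and TH− cells the number of members called was 0 except with the section block, where it was 4. The number of related genes called there was 4, all higher in TH+ cells, and it was 0 with DESeq2, 11 with the section block (10 higher and 1 lower), 3 without the filter (2 higher and 1 lower) and between 0 and 9 when a section was left out. It was 1 without section 1, 9 without section 2 (8 higher and 1 lower) and 0 without section 3, 4 or 5, and the lower gene was Gucy1a1 in all 3 cases. The causes of these changes were not tested. The fitted differences of the 8 members between TH+ and TH− cells stayed above 0 under each alternative, from 0.044 to 1.0.

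Over all genes, calls between TH+ and TH− cells went from 50, of which 90.0% were higher in TH+ cells, to 148 with the block (64.9% higher in TH+), to 66 without the filter (51.5%), where the median over all genes was -0.36, to 73 without section 2 (69.9%) and to 29 without section 3. Of the 4152 calls between ONL and BCL, 50.5% were higher in the ONL, against 41.2% with DESeq2 and 44.4% with its size factors, which moved the median of all genes from 0.087 to -0.0089. Guca1a, with 8 UMIs in 12 layer libraries, was tested only without the filter, and was not called there.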
